A study of Mus musculus with 32 samples.

Results

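Immunoglobulin genes were examined in 32 primary melanomas of mice, 8 tumours from each sex of each of 2 genotypes. They were taken as every gene that GENCODE classes as an immunoglobulin V, J or C gene and whose raw counts summed to 200 or more over the 32 tumours. The rule kept 144 of the 245 such genes, among 50600 genes measured. They comprised 132 V segments (64 heavy, 65 kappa and 3 lambda) and 12 constant genes (8 heavy, 1 kappa and 3 lambda). No J segment reached 200 counts, the highest being at 138. Just inside the threshold were Ighv8-5 at 201 summed counts, Igkv1-133 at 207 and Igkv3-1 at 208, and just outside were Igkv14-130 at 189, Ighv2-9 at 184 and Igkv4-63 at 183. The genes were thus chosen by their summed counts over all tumours, so the totals, the classes and the leading V segments that follow are descriptions without a test.

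The mice were of a C57BL/6J background and developed melanoma from an NRAS oncogene driven by the tyrosinase promoter, which acts in pigment cells, with 1 copy of the tumour suppressor gene Cdkn2a missing and both copies of Cdh1 flanked by recombination sites. Ecad tumours (Tyr::NrasQ61K; Cdkn2a-/+; °/°; Cdh1F/F) kept E-cadherin, the protein that Cdh1 encodes. ΔEcad tumours came from mice in which, by the methods of the study, a Cre recombinase under the same promoter (Tyr::CreA/°) deletes Cdh1 in melanocytes, so that the stroma and the immune cells keep the gene. The label of the ΔEcad mice writes Tyr::NRAS/° in the place of the Cre. Ages, dates and batches were not given in the labels, nor was which tumours came from the same mouse, so the p-values below measure the spread between tumours as labelled.

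Each tumour was ground up whole, and its library held 24036333 to 63923086 counts (median 34684496.5). Cdh1, in TPM (transcripts per 1000000 transcripts, a level corrected for gene length), ranged over 25.0 to 281.9 in males and 2.16 to 151.2 in females of the Ecad genotype, and over 0.79 to 65.2 and 0.17 to 143.2 in those of the ΔEcad genotype, so the groups overlapped and genotypes rest on the labels. The sex-linked genes of the library labelled ΔEcad male 2 did not match its label, and it was kept among the ΔEcad males as labelled. Melanocytic markers summed to 5773 TPM or more in every other tumour but to 31.5 TPM in ΔEcad male 7. Whether that sample held little melanoma, or melanoma with these genes low, was not tested. ΔEcad female 3 held 2 immunoglobulin counts in all, under the 3 counts taken as the limit that a count of 0 allows.

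An antibody is built of heavy and light chains. Its heavy chain is encoded by a rearranged V, D and J segment joined to a constant gene that sets the class, Ighm and Ighd in B cells that have not switched, and Ighg, Ighe or Igha after class switching. The light chain uses either the kappa or the lambda locus. Each B cell rearranges its loci for itself, and its descendants keep the same V segments, so the V segments in a tissue reflect how many B cell families contribute RNA. Plasma cells, the end stage of B cells, secrete antibody and make far more immunoglobulin RNA than a resting B cell does. The counts per V segment hold no junction sequence, and a V segment that leads a tumour cannot be told apart as 1 clone or as several clones that use it. Nor do they show which heavy and light V segments were used by the same cell, so a pair of segments below means segments of the same tumour. Secreted and membrane forms were likewise not separated.

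The heavy genes lie on mouse chromosome 12 (V segments at 113588267 to 116000461, constant genes at 113254830 to 113422730, GRCm38), the kappa V segments on chromosome 6 at 67609713 to 70704177 with Igkc at 70726435 to 70726966, and the lambda genes on chromosome 16 at 19061618 to 19260859. Of the 132 V segments, 116 shared at least one 50-base word of their transcripts with a transcript of another gene, and 16 shared over 50% of their words. Reads can thus be split between near-identical segments, and single segments are uncertain to that extent. The largest heavy family was Ighv1, with 32 of its 53 genes among the members and 54.3% of all Ighv counts. The kappa counts were spread over Igkv6 (15.4%), Igkv1 (13.6%), Igkv5 (12.3%) and Igkv4 (10.9%).

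The V segments that lead the tumours with the most uneven V usage are shown first, as the V exon of the GENCODE M21 transcript on GRCm38, read 5′ to 3′ on the strand of the gene and limited to the 300 bases at its 3′ end. Capitals run from the codon of the conserved cysteine, at which the junction of the rearranged chain begins, to the end of the exon. The heavy segments were Ighv14-4 (chr12:114176444-114176742, minus strand), Ighv1-53 (chr12:115158403-115158702, minus strand) and Ighv11-2 (chr12:114048241-114048540, minus strand).
Ighv14-4: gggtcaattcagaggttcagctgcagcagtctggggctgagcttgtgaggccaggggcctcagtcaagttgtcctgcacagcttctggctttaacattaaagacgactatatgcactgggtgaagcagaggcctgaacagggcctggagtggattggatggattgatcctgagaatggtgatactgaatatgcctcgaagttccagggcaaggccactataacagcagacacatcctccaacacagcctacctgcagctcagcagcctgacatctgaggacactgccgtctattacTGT
Ighv1-53: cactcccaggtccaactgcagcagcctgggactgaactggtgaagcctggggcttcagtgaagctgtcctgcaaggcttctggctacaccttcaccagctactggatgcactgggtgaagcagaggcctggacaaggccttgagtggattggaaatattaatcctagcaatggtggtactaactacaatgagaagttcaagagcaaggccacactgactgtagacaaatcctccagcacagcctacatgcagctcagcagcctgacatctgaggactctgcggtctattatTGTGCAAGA
Ighv11-2: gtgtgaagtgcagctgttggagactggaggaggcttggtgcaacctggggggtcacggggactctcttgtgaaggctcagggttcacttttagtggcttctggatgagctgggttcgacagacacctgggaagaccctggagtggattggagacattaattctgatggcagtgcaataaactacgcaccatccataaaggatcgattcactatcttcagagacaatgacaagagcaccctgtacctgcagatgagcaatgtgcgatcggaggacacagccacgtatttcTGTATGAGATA
The exons of Ighv14-4 and Ighv1-53 were 77.7% identical and those of Ighv14-4 and Ighv11-2 57.1% identical.

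The kappa segments shown next led in the same tumours. They were Igkv6-20 (chr6:70335841-70336138, minus strand), Igkv4-50 (chr6:69700767-69701066, minus strand), Igkv3-5 (chr6:70663596-70663895, plus strand) and Igkv14-126 (chr6:67896345-67896642, plus strand), with capitals as before.
Igkv6-20: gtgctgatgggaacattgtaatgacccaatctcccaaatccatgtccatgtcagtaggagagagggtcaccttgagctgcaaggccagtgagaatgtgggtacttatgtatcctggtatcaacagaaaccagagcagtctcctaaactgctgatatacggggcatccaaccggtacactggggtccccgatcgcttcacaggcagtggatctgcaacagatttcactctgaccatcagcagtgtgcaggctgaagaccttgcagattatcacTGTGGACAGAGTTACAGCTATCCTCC
Igkv4-50: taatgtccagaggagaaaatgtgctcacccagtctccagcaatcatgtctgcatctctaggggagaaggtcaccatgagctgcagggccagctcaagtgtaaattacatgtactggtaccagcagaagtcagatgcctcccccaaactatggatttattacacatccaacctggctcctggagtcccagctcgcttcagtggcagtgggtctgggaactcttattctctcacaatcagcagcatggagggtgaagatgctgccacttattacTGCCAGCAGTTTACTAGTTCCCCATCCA
Igkv3-5: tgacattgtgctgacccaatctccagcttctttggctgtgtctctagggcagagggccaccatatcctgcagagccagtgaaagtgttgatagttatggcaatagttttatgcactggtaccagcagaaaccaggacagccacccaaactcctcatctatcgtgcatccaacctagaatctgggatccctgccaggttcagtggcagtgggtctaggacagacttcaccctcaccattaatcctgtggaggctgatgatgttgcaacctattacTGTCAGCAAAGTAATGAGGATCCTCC
Igkv14-126: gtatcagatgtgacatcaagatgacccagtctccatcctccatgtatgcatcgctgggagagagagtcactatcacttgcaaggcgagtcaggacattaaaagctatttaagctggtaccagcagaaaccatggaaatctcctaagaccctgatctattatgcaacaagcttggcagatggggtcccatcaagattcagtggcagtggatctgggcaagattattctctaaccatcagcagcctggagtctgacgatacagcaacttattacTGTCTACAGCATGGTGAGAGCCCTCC
The 4 exons were 64.6% to 67.3% identical in pairs.

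Igkv10-94 (chr6:68704508-68704805, minus strand) is printed beside Igkv10-96 (chr6:68631963-68632260, minus strand), because Igkv10-94 is the member that passed the test between groups and the pair is close in sequence. Capitals here mark the 16 of 298 bases at which they differ, an identity of 94.6%.
Igkv10-94: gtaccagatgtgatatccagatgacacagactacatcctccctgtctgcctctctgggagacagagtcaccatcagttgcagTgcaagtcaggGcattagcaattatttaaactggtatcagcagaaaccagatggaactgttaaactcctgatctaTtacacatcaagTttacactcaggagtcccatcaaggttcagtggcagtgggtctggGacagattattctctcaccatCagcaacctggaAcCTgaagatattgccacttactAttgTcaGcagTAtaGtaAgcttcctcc
Igkv10-96: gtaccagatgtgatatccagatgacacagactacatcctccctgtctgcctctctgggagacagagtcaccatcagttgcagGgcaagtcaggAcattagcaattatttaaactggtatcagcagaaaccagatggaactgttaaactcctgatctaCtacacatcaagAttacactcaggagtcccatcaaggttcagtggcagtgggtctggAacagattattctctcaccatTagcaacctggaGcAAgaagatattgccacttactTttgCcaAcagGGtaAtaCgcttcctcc

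The immunoglobulin total varied widely between tumours, also between those of the same label. It is given in CPM (counts of the immunoglobulin genes scaled to a library of 1000000 counts). Over all 4 groups it ran from 1.02 to 11320 CPM among the tumours with over 3 immunoglobulin counts, an 11110-fold range. In Ecad males the 144 genes took 25.5, 110.4, 23.1, 630.1, 146.9, 283.8, 1.02 and 26.7 CPM in tumours 1 to 8. In Ecad females they took 9.51, 2220, 4.02, 1.26, 9.22, 11050, 11320 and 14.9 CPM. Ecad females 2, 6 and 7 thus lay far above the other 5, which were at or under 14.9 CPM. In ΔEcad males the values were 142.1, 34.7, 148.9, 46.9, 87.4, 1.43, 3883 and 30.9 CPM, and tumour 7 stood apart. In ΔEcad females they were 35.7, 997.3, 0.0415, 2.16, 172.1, 11.4, 713.9 and 227.5 CPM. At the top, the immunoglobulin genes held 1.13% of all counts of Ecad female 7 and 1.11% of those of Ecad female 6.

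**Figure D1:**
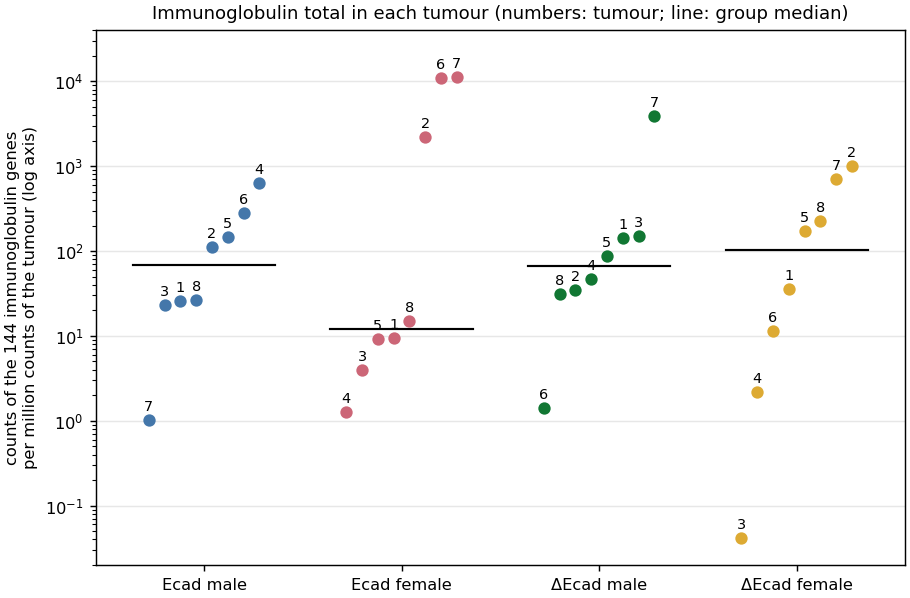
Total of the 144 immunoglobulin genes in CPM on a log axis, for the 8 tumours of each group. Numbers name the tumour and the horizontal line is the group's median. Ecad females 2, 6 and 7 and ΔEcad male 7 lie over 1000 CPM, and the median of the Ecad females is the lowest of the 4.

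Medians and means ordered the groups differently. The medians were 68.5 CPM (males) and 12.2 CPM (females) with Ecad, and 67.1 CPM (males) and 103.9 CPM (females) with ΔEcad. The means were 155.9 ± 213.4, 3079 ± 5062, 546.9 ± 1349 and 270.0 ± 378.7 CPM (SD, n = 8 each), with Ecad females highest by the mean and lowest by the median. All 4 groups overlapped. Of the 1208444 immunoglobulin counts in the study, 36.95% came from Ecad female 6, 35.55% from Ecad female 7, 11.9% from ΔEcad male 7 and 4.42% from Ecad female 2, which makes 88.9% from these 4 tumours. By count, 60 V segments were highest in Ecad female 6, 62 in Ecad female 7, 6 in ΔEcad male 7 and 4 in Ecad female 2. In bulk tissue, fewer antibody-secreting cells and less immunoglobulin RNA per cell cannot be told apart.

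The antibody class was read from the 8 heavy constant genes, as shares of their summed TPM, in the 22 tumours with 500 or more constant-gene counts. Ighm, the constant gene of IgM, led in 13 tumours, Igha, of IgA, in 4, Ighg2c in 3 and Ighg2b in 2. The 3 tumours led by Ighg2c, an IgG gene of C57BL/6 mice, were Ecad females 2, 6 and 7, the same tumours that held the high totals. There IgG took 74.9%, 93.9% and 84.7% of the heavy constant TPM, and IgM with IgD 23.1%, 4.94% and 7.37%. No other Ecad female reached 500 constant-gene counts, so the class of the remaining 5 is not given.

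Levels of the single genes show which IgG it was. Ighg2c was at 922.7, 1869 and 2678 TPM in Ecad females 2, 6 and 7, and at most 118.6 TPM in the other 29 tumours (Ecad male 4). Ighg2b was at 229.7, 1352 and 2184 TPM in the same 3 tumours. Ighg1 was at 77.9, 1533 and 1006 TPM, beside 1869 TPM of Ighg2c in Ecad female 6, and took 4.24% of the heavy constant TPM in Ecad female 2. Ighg3 went the other way, at 145.1 TPM in Ecad female 2 against 43.6 and 40.8 TPM in tumours 6 and 7. Ighe, of IgE, the class of allergy and worm infection, was at 1.97, 16.8 and 13.9 TPM and at or under 0.23 TPM in every other tumour. Ighd, made by B cells before switching, was at 41.9 TPM in Ecad female 2, 3.8 in tumour 6 and 5.15 in tumour 7.

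ΔEcad male 7 held the third largest share of the counts, with another class. Ighm was at 2803 TPM and took 92.4% of its heavy constant TPM, while IgG took 7.17%. The next highest Ighm level was 508.7 TPM, in Ecad female 7. In ΔEcad male 7 the lambda constant genes were Iglc3 at 251.8 TPM, Iglc2 at 139.5 TPM and Iglc1 at 87.2 TPM, and in Ecad female 7 the order was Iglc1 at 554.0, Iglc2 at 336.1 and Iglc3 at 45.4 TPM.

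In the other ΔEcad tumours with enough counts, IgM with IgD was again the leading class in most. Its share was 63.7% in ΔEcad female 1, 80.0% in female 5, 97.4% in female 7 and 80.9% in female 8, and 11.9% in female 2. In ΔEcad males 1, 2, 3, 4, 5 and 8 it was 27.0%, 50.4%, 91.3%, 67.9%, 31.1% and 98.3%. ΔEcad male 5 was led by Ighg2b, at 61.2% of the heavy constant TPM. In Ecad males 1, 2, 3, 4, 5, 6 and 8 the share of IgM with IgD was 44.3%, 71.0%, 16.2%, 50.5%, 61.8%, 52.2% and 44.6%. Ecad male 3 was led by Ighg2b at 53.1%, with 12.5 TPM over all heavy constant genes.

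Igha, the gene of the antibody of mucosal surfaces, led in ΔEcad female 2 with 81.9% of the heavy constant TPM and a level of 428.3 TPM. This was the second highest Igha level after 538.8 TPM in Ecad female 7, where Igha took 7.72%. The other tumours led by Igha were Ecad male 1 (48.9%), Ecad male 8 (44.5%) and ΔEcad male 1 (39.2%), at 8.04, 5.53 and 21.8 TPM. Keratinocyte markers, which stand for surrounding skin, summed to 38300 TPM in ΔEcad female 2, the highest of the 32 tumours, and their part in its class was not tested.

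**Figure D2:**
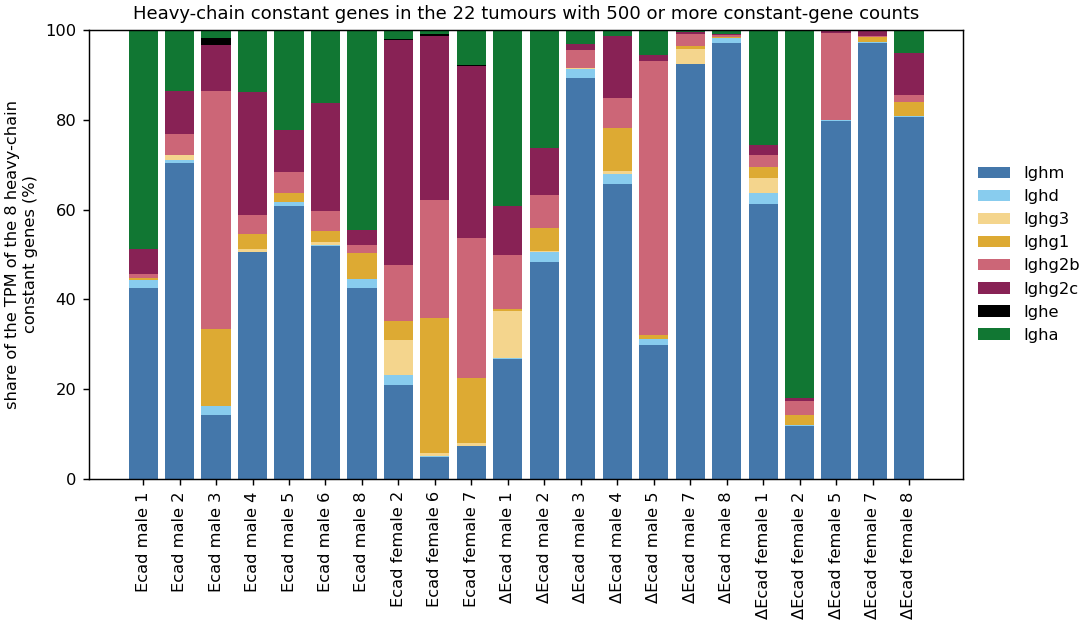
Share of each heavy constant gene in the summed TPM of the 8 heavy constant genes, as stacked bars to 100%, for the 22 tumours with 500 or more constant-gene counts. Ecad females 2, 6 and 7 are mostly IgG (Ighg2c, Ighg2b and Ighg1), ΔEcad female 2 is mostly Igha, and most other ΔEcad tumours are mostly Ighm.

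The median share of IgM with IgD was 50.5% over 7 males and 7.37% over 3 females with Ecad, and 67.9% over 7 males and 80.0% over 5 females with ΔEcad. The range of the Ecad females, 4.94% to 23.1%, held the values of Ecad male 3 and ΔEcad female 2. The Ecad females that passed the count minimum were those with the highest totals, so these medians compare tumours of unlike antibody content. With a minimum of 100 counts the median of the Ecad females was 40.6%.

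Kappa light chains exceeded lambda in every one of the 22 tumours. Igkc took 70.4% to 99.0% of the light constant TPM. The 2 lowest values were ΔEcad male 1 at 70.4%, where Iglc1 was at 88.5 TPM beside 215.8 TPM of Igkc, and Ecad male 3 at 86.9%. Light over heavy constant TPM had a median ratio of 2.63, from 1.38 in ΔEcad male 4 to 5.61 in Ecad male 8. V segments held a median of 15.5% of the immunoglobulin counts, from 0.427% in Ecad male 3 to 26.9% in Ecad female 2. ΔEcad male 1 was also low, with 2.14%, so its 4058 counts were nearly all in constant genes.

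The V usage of a tumour was described by its leading segment, the share of that segment in the V counts of its chain with an exact binomial 95% interval, and the inverse Simpson index, which gives the number of equally used segments with the same evenness. Intervals cover counting error only, since reads carry no molecular identifiers. Of the 11 tumours with 200 or more Ighv counts and the 14 with 200 or more Igkv counts, 3 had a leading segment over 50% in each chain, and they were the same tumours.

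ΔEcad female 7 was led by Ighv14-4, with 275 of 376 Ighv counts (73.1%, 95% interval 68.4% to 77.6%), and by Igkv6-20, with 1137 of 1914 Igkv counts (59.4%, 57.2% to 61.6%). ΔEcad female 5 was led by the same heavy segment, Ighv14-4, with 229 of 366 counts (62.6%, 57.4% to 67.5%), but by another kappa segment, Igkv4-50, with 780 of 1309 counts (59.6%, 56.9% to 62.3%). Igkv4-50 had 0 of 1914 Igkv counts in ΔEcad female 7, which allows a share of up to 0.157%, and Igkv6-20 had 13 of 1309 in ΔEcad female 5, so the pair of segments differed between these tumours. Ighv14-4 also held 9.37% of the Ighv TPM in ΔEcad female 2 and 10.1% in ΔEcad female 8. In Ecad females 6 and 7 it held 2.07% and 2.10%, and in ΔEcad males 5 and 7 it held 0% (0 of 234 counts, which allows up to 1.28%) and 0.496%.

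ΔEcad male 5 was led by Ighv1-53, with 203 of 234 Ighv counts (86.8%, 81.7% to 90.8%), and by Igkv3-5, with 257 of 343 Igkv counts (74.9%, 70.0% to 79.4%). Its effective number of heavy segments was 1.30, the lowest of the 11, and of kappa segments 1.81, the lowest of the 14. The same pair was present at a lower share in ΔEcad female 8, where Ighv1-53 held 18.7% of the Ighv TPM and Igkv3-5 17.6% of the Igkv TPM. Ighv1-53 led in Ecad female 1 too, with 43 of 46 Ighv counts, beside Igkv12-46 with 58 of 72 Igkv counts. These totals are under the minimum of 200, and the segment count in that tumour rests on few molecules.

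ΔEcad male 7 was led by Ighv11-2, with 1456 of 6516 Ighv counts (22.3%, 21.3% to 23.4%), and by Igkv14-126, with 5195 of 15078 Igkv counts (34.5%, 33.7% to 35.2%). This pair is known from B-1 cells, a self-renewing kind of B cell that makes natural IgM, in antibodies against phosphatidylcholine. Whether such cells were present in any tumour here was not tested. The pair stood second in both chains of ΔEcad female 5, with Ighv11-2 at 11.2% of the Ighv TPM and Igkv14-126 at 16.2% of the Igkv TPM. It stood second in both chains of ΔEcad female 7 as well, at 7.09% and 12.4%. In ΔEcad male 3, Igkv14-126 led with 126 of 692 Igkv counts and Ighv11-2 had 22 of 144 Ighv counts. Ighm and Ighd together took 92.5%, 80.0%, 97.4% and 91.3% of the heavy constant TPM in these 4 tumours, in the order named. In Ecad females 2, 6 and 7 the pair was at 0.930% and 1.21%, 0.0720% and 0.118%, and 0.0757% and 0.233%. In ΔEcad female 8, with 80.9% IgM and IgD, it was at 0% (0 of 351 Ighv counts, which allows up to 0.855%) and 0.120%, so its share was not as high in every tumour rich in IgM.

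In the Ecad females with the largest totals the V usage was broad. The leading heavy segments were Ighv1-9 in Ecad female 2 (10.8% of Ighv counts), Ighv6-6 in Ecad female 6 (11.4%) and Ighv1-82 in Ecad female 7 (7.63%), which are 3 different segments. Their effective numbers of heavy segments were 26.5, 23.99 and 25.7, and of kappa segments 24.1, 21.03 and 28.7, against 11.5 and 5.85 in ΔEcad male 7. Ecad females 2 and 7 shared their leading kappa segment, Igkv10-96, at 9.14% and 6.49% of the Igkv counts, and Ecad female 6 was led by Igkv5-39 at 13.2%. The count of segments with over 3 counts was 129, 129 and 131 of 132 in Ecad females 2, 6 and 7, at 14332, 105080 and 96162 V counts. ΔEcad female 2, led by Igha, used Ighv1-5 (16.3% of Ighv counts) and Igkv1-110 (10.6% of Igkv counts) most, with an effective number of 14.1 heavy and 19.99 kappa segments.

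**Figure D3:**
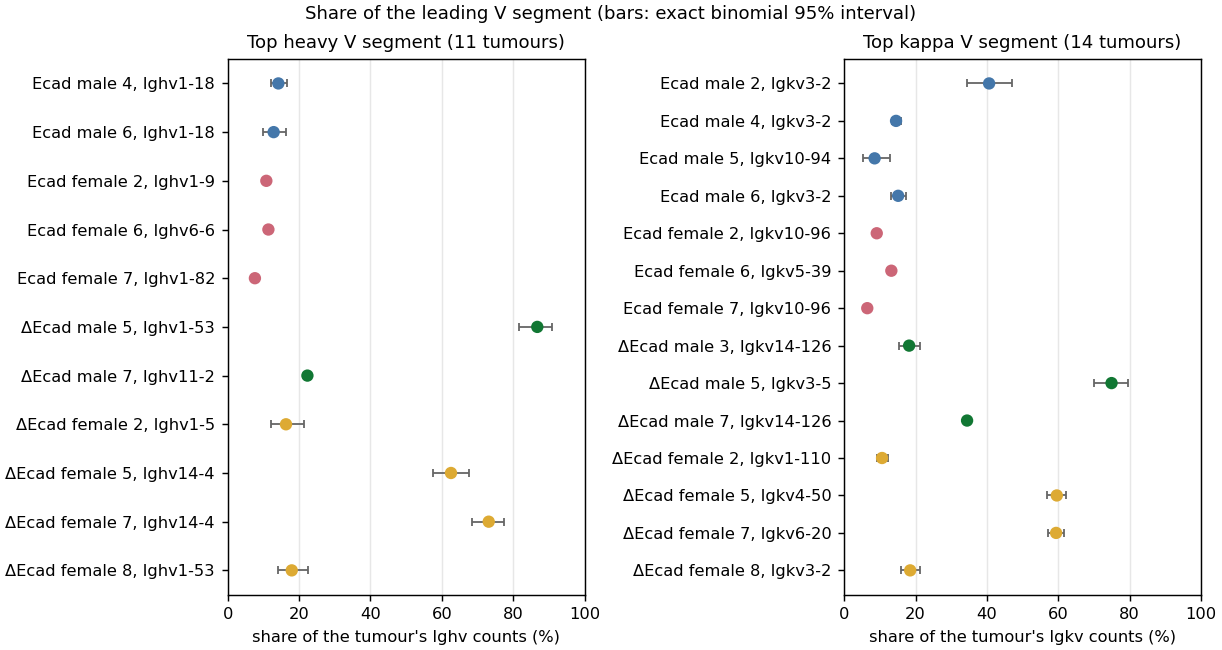
Share of the leading heavy V segment (left, 11 tumours) and leading kappa V segment (right, 14 tumours) in the V counts of that chain, in percent, with exact binomial 95% intervals as bars and the segment named beside the tumour. ΔEcad male 5 and ΔEcad females 5 and 7 are over 50% in both chains, and Ecad females 2, 6 and 7 are at or under 13.2%.

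Igkv3-2 was the segment that led most often. It was first among kappa segments in Ecad males 2, 4 and 6 and in ΔEcad female 8, with 40.6%, 14.6%, 15.1% and 18.5% of the Igkv counts. Ecad male 2 had an effective number of 4.65 kappa segments, under the 5.85 of ΔEcad male 7. Among the 12 tumours with 500 or more V counts, Igkv3-2, Igkv1-110 and Igkv10-96 were each among the 5 leading kappa segments in 6.

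V usage was also compared between tumours, as the part of the V TPM that any pair held in common (the sum over segments of the smaller of both shares). Over the 66 pairs of the 12 tumours the median was 31.5%. Pairs from different groups shared 8.02% to 46.4% (53 pairs, median 31.2%). The 3 pairs of Ecad females 2, 6 and 7 shared 46.7% to 56.5%, so the lowest of them was close to the highest pair from different groups, at 46.4%. The 6 pairs of ΔEcad females 2, 5, 7 and 8 shared 21.1% to 35.95%. Depth and the evenness of V usage differed between the 12 tumours, and were not made equal for this measure.

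Ecad males 4 and 6 stood apart with 87.4% of their V usage in common, 85.7% of the heavy and 88.1% of the kappa part. Of their 10 leading segments, 8 were the same. The next pair, Ecad females 2 and 7, shared 56.5%. Both Ecad males had Ighv1-18 and then Ighv1-55 as leading heavy segments and Igkv3-2 as leading kappa segment, and their IgM with IgD shares were 50.5% and 52.2%. Over all genes outside the immunoglobulins their log2 levels had a correlation of 0.964, the third highest of the 66 pairs. The labels do not say whether these tumours came from 1 mouse, and neither that nor carry-over between libraries was tested. They were counted as 2 tumours, at 630.1 and 283.8 CPM.

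**Figure D4:**
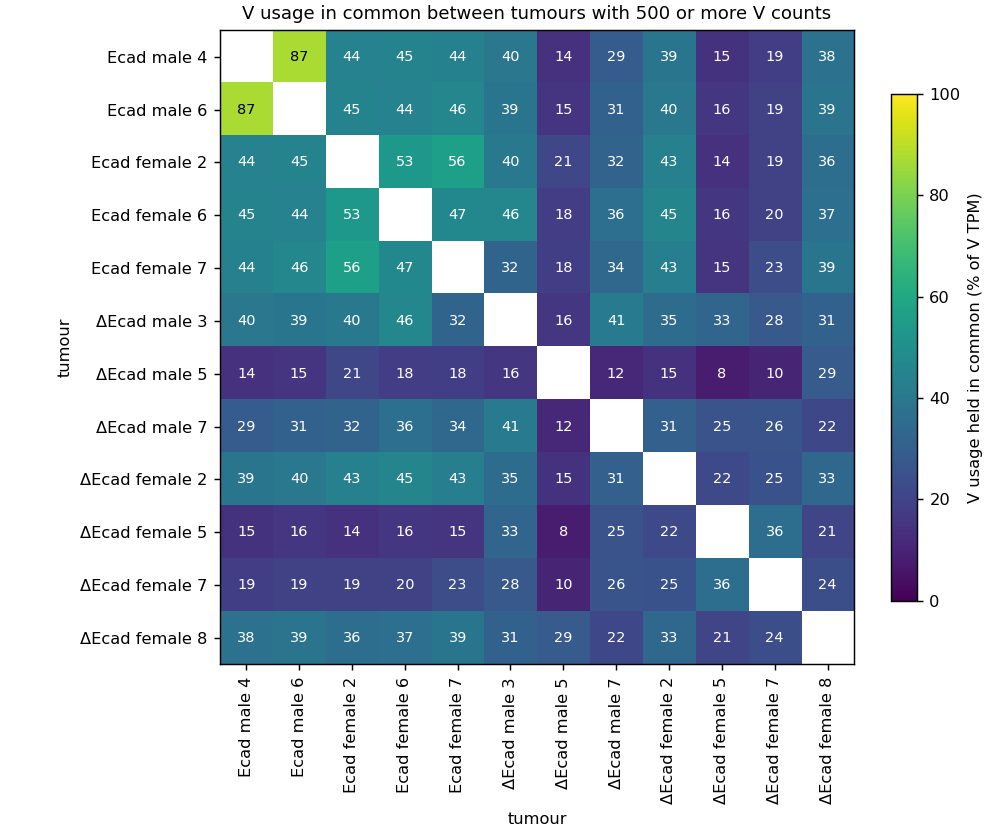
Percent of the V usage (by TPM) that each pair of the 12 tumours with 500 or more V counts held in common, as a colour and a rounded number. Ecad males 4 and 6 share 87.4%, Ecad females 2, 6 and 7 share 46.7% to 56.5% with each other, and ΔEcad male 5 and ΔEcad female 5 share the least, 8.02%.

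Genes outside the immunoglobulins were ranked by how closely their level followed the immunoglobulin total over the 32 tumours (Spearman's rho of log2 CPM, 17678 genes). Jchain, which joins IgM and IgA into polymers and is made by antibody-secreting cells, ranked first with a rho of 0.957. Its Pearson's r was 0.940, and 0.914 without Ecad females 6 and 7. Within the groups, rho was 0.833 and 1.0 for males and females with Ecad, and 0.905 and 0.952 for males and females with ΔEcad (n = 8 each). Next came Mzb1, a chaperone of antibody assembly (0.885), Tnfrsf13b, the receptor TACI of B cells (0.826), Traf3ip3 (0.804), Gimap3 (0.798), H2-DMb2 (0.788) and Lax1 (0.785). Cd79a and Cd79b, the signalling chains of the B cell receptor, followed at 0.782 and 0.764, and Ltb, a lymphotoxin subunit, at 0.763. These are descriptions across tumours that share libraries with the immunoglobulin counts.

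Single markers of the secreting stage and of the earlier B cell stage did not order the 4 tumours with the highest totals in the same way. Jchain was at 66.9, 138.9, 148.0 and 204.5 TPM in Ecad females 2, 6 and 7 and ΔEcad male 7, and at most 19.7 TPM in the other 28 tumours (ΔEcad female 7). Cd79a was at 26.1, 22.1, 27.9 and 6.87 TPM, so ΔEcad male 7 had the most Jchain and the least Cd79a of these 4. Other markers did not share that order, with Mzb1 at 17.9, 68.5, 121.3 and 31.98 TPM and Cd79b at 25.5, 8.07, 12.2 and 15.9 TPM. Ms4a1, which encodes CD20, was at 4.36 TPM in Ecad female 2, the tumour that also had the most Ighd, and at or under 1.89 TPM elsewhere. Tnfrsf17, the receptor BCMA of plasma cells, was highest in ΔEcad male 7, at 5.05 TPM. Rag1, needed for V, D and J joining, was at or under 0.04 TPM in every tumour.

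**Figure D5:**
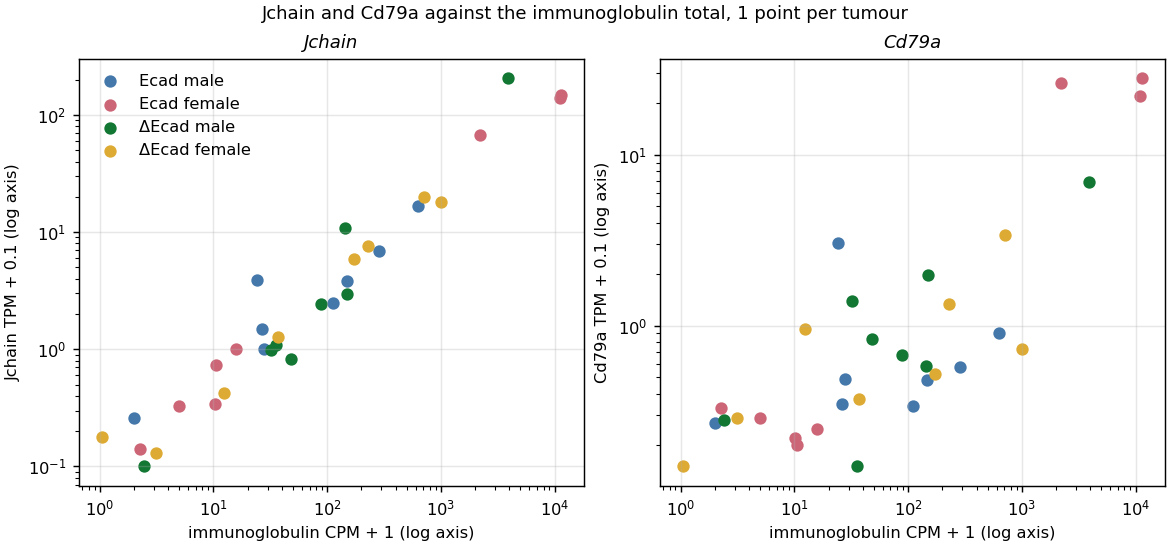
Jchain (left) and Cd79a (right) in TPM plus 0.1 against the immunoglobulin total in CPM plus 1, both on log axes, with 1 point per tumour coloured by group. Jchain follows the total over its whole range, while Cd79a is at or under 3.3 TPM outside Ecad females 2, 6 and 7 and ΔEcad male 7.

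Over the whole lists, Ecad females 2, 6 and 7 had all 15 plasma cell and all 15 B cell markers over 3 counts, and ΔEcad male 7 had 14 and 15. The B cell list summed to 117.5, 45.6, 82.4 and 48.5 TPM in these 4, with 0.88 to 39.5 TPM in the others. The plasma cell list did not set them apart, and some of its genes were high in every tumour, with Sdc1 over 6.06 to 357.4 TPM and Xbp1 over 13.1 to 227.3 TPM in all 32. T cell markers summed to 38.6, 18.3, 85.0 and 214.0 TPM in the 4 tumours, the last being the highest of all. Lymph node stroma and vessel markers summed to 41.0, 10.99, 109.5 and 14.9 TPM, against up to 1248 TPM elsewhere (ΔEcad male 8). Salivary and mucosal gland markers summed to 27.9, 1229, 1307 and 18.3 TPM, nearly all from the protease inhibitor Slpi (1228 and 1307 TPM in Ecad females 6 and 7), and the highest sum, 20340 TPM, was in Ecad female 3 with 4.02 CPM of immunoglobulin. The part of these other cell types in the immunoglobulin levels was not tested.

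The first comparison set ΔEcad against Ecad tumours of females, by their labels. Cdh1 itself was at -0.0024 on the log2 scale (SE 0.873) in this fit, so the RNA of the whole tumours showed no loss of Cdh1 here. Of the 144 genes, 39 passed the filter on low counts (28 V segments and 11 constant genes, without Ighe), and they passed mostly through the same few tumours, so counts over them support nothing by themselves. Igkv10-94 was the member that passed the edgeR test, lower in ΔEcad, where 0.0452% of all 17717 genes were called lower and 1.2% in either direction. Its counts were 283, 1809 and 357 in Ecad females 2, 6 and 7 and 0 in the other 5, and 4, 0, 0, 0, 0, 2, 0 and 1 in the 8 ΔEcad females. The difference on the log2 scale was -8.43, its SE 2.00 and its adjusted p by edgeR 0.0394, and it rests on those 3 tumours, since the other 13 held 0 to 4 counts. The call was lost without any 1 of Ecad females 1, 2, 3, 4, 6, 7 or 8 or of ΔEcad females 1, 2 or 7, among the 32 fits that left out a tumour. It was lost too, with a fold change of similar size, in a fit of the groups compared alone (-8.48, adjusted p 0.105) and with marker scores of skin and pigment cells as covariates (-8.83, adjusted p 0.312). With limma voom the estimate was smaller (-2.63, adjusted p 0.454), and DESeq2 made the call (-8.55, adjusted p 0.0030). Over these and the other alternatives its adjusted p ranged from 0.0030 to 0.454.

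No other member passed in this comparison. At an unadjusted p under 0.05 there were 30 of 39 members, against 15.3% of all genes, and DESeq2 called 13 members lower, where it called 0.559% of all genes lower and 7.23% in either direction, and limma voom 0. The median log2 fold change of the 39 was -5.05, against -0.02 over all genes. Standard errors were large, with a median of 1.86 on the log2 scale against 0.431 over all genes. By class, the IgG genes had the largest estimates, with Ighg2c at -7.96 (SE 2.15, edgeR adjusted p 0.0521), Ighg1 at -7.09, Ighg2b at -6.79 and Ighg3 at -6.76. Ighm and Igha were at -0.84 (SE 1.44) and -0.67 (SE 1.69), and Igkc at -3.45 (SE 1.71, edgeR adjusted p 0.333). The segments Ighv14-4, Ighv11-2 and Igkv14-126, each of which leads in 1 or 2 of the ΔEcad tumours, were at -0.98, -0.49 and 0.29, with standard errors of 1.48 to 1.72.

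Markers of keratinocytes moved with the same comparison. Of 7 keratinocyte genes edgeR called 0, where it called 1.2% of all genes, but 6 had an unadjusted p under 0.05, against 15.3% of all genes. DESeq2 called 5, where it called 7.23% of all genes, and limma voom 0. The median log2 fold change of the 7 was 5.49 towards ΔEcad females. The keratinocyte list also had 6 genes at an unadjusted p under 0.05 between Ecad females and males, against 16.0% of all genes, with a median of -5.15. With keratinocyte and melanocytic scores as covariates, 0 immunoglobulin genes and 6 genes in all were called between the female genotypes. The median log2 fold change of the 39 immunoglobulin genes was -7.77 with these covariates, against -5.05 without them.

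On a log scale, where each tumour weighs the same, the female genotypes differed by less than the SD of the Ecad females in the genes given here. For Ighg2c the difference was larger than the SD of the ΔEcad females. In log2(CPM + 1), Igkc was at 4.48 ± 3.40 in ΔEcad and 5.13 ± 5.00 in Ecad females (SD, n = 8 each), a difference of -0.65 with a two-sided exact permutation p of 0.761. Ighg2c was at 0.89 ± 1.14 and 3.64 ± 4.95 (difference -2.75, exact permutation p 0.192, n = 8 each), and Ighm at 4.04 ± 2.85 and 3.99 ± 3.35 (difference 0.04, exact permutation p 0.977). Of 56 such tests, over the 12 constant genes, Jchain and Igkv10-94 in 4 comparisons, 0 had a p under 0.05, where 8 against 8 tumours can reach 0.0001554. The lowest was 0.0573, for Igkv10-94 between female and male ΔEcad tumours. Where a difference is carried by 3 tumours of 1 group, such a test cannot come near its smallest p. Ighg3 and Igkv10-94 were each at an exact permutation p of 0.2 between the female genotypes, so for them the test could not decide.

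Female and male Ecad tumours were compared next, and share the Ecad females with the comparison above. No member was called by edgeR (0.0508% of all genes were, 0.0113% higher and 0.0395% lower in females), 29 of 39 had an unadjusted p under 0.05 against 16.0% of all genes, and DESeq2 called 12 members, all higher in females, where it called 0.514% of all genes higher and 5.77% in either direction, and limma voom 0. The median log2 fold change was 4.94, with Ighg1 at 6.91 (SE 2.17), Ighd at 3.90 (SE 1.15) and Ighm at 1.39 (SE 1.46). With limma voom the median was 1.18, and Ighg1, Ighm and Ighg2c turned to -0.10, -0.61 and -0.91. On the log2(CPM + 1) scale Igkc was at 5.13 ± 5.00 in females and 4.56 ± 2.28 in males (SD, n = 8 each, exact permutation p 0.767).

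In males, ΔEcad and Ecad tumours gave 0 called members with edgeR, DESeq2 and limma voom, where edgeR called 0.0% of all genes, and 6 of 39 members had an unadjusted p under 0.05 against 10.2% of all genes. The largest estimates were Igkv14-126 at 6.25 (SE 2.16) and Ighv11-2 at 6.09 (SE 2.06), the pair that leads in ΔEcad male 7, and without that tumour they were at 1.39 (SE 1.63) and 0.62 (SE 1.56). The median of the 39 turned from 1.27 to -1.06 without it, with 3 at an unadjusted p under 0.05. Without ΔEcad male 2, whose sex-linked genes did not match its label, the median was 1.37 and 0 members were called. Between female and male ΔEcad tumours the 3 tools again called 0 members, where edgeR called 0.0395% of all genes, 0.00564% higher and 0.0339% lower in females, and 5 of 39 had an unadjusted p under 0.05 against 8.81%. Ighv14-4 was at 4.10 (SE 1.69, edgeR adjusted p 0.529) and Ighg3 at -5.66 (SE 2.08, edgeR adjusted p 0.500), the latter with 102.3 TPM in ΔEcad male 7 and at most 5.84 TPM in the other ΔEcad tumours. Without ΔEcad male 7 they were at 6.24 (SE 1.98) and -2.82 (SE 1.79), and the median of the 39 turned from -1.07 to 1.31, with 1 at an unadjusted p under 0.05. Without ΔEcad male 2 that median was -1.23, with 0 members called. For the difference of the genotype effect between the sexes, edgeR called 0 members and 0.0% of all genes, limma voom 0 members and DESeq2 6 lower, where DESeq2 called 0.728% of all genes lower and 6.91% in either direction. At an unadjusted p under 0.05 there were 27 of 39 against 17.7% of all genes, and 14 of 39 without ΔEcad male 7. For the fits without ΔEcad male 7 the share of all genes at such a p is not given here, so their counts have no background to be read against.

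Lists of genes around the antibody response were read from the same fits, in the order female genotype, male genotype, Ecad sex, ΔEcad sex and the difference between the sexes. Of 14 plasma cell genes tested, edgeR called 0 in any of the 5 comparisons, and 4, 1, 5, 0 and 6 had an unadjusted p under 0.05. Of 9 B cell genes tested it again called 0, and 5, 1, 5, 0 and 5 had an unadjusted p under 0.05. Over all genes the shares at such a p were 15.3%, 10.2%, 16.0%, 8.81% and 17.7%. The median log2 fold changes between the female genotypes were -0.33 for the plasma cell list and -1.88 for the B cell list, against -0.02 over all genes. Between the female genotypes DESeq2 called Derl3 and Pou2af1 of the plasma cell list and Cd79a of the B cell list lower, and Sdc1 and Ebf1 higher, in ΔEcad, and limma voom called 0 of both lists in all comparisons. Between Ecad females and males DESeq2 called Derl3, Mzb1, Pou2af1, Bank1 and Cd79a, all higher in females. For the difference between the sexes it called Jchain, Mzb1, Bank1 and Cd79a, all lower. Over all genes DESeq2 called 7.23% between the female genotypes, 5.77% for Ecad sex and 6.91% for the difference between the sexes.

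Of 8 genes tested for antibody receptors and transport, edgeR called 1, higher in ΔEcad than in Ecad females, where 1.16% of all genes were. It was Fcamr, the receptor for IgA and IgM, with 5.31 on the log2 scale (SE 1.37) and an adjusted p by edgeR of 0.0494, at 0 to 3 counts in Ecad and 0 to 70 counts in ΔEcad females. In Ecad males Fcamr was at 0 to 66 counts. The call was lost without any 1 of Ecad males 1, 2, 4, 5 or 8, Ecad females 1, 2, 3, 4, 6, 7 or 8, ΔEcad males 1, 2 or 5 or ΔEcad females 1, 2, 6 or 7, and also with limma voom, with the covariates and with the groups compared alone. DESeq2 called Fcamr and Fcer1a higher, and the adjusted p of Fcamr ranged from 0.00598 to 0.806 over the alternatives. Pigr, which carries IgA and IgM across epithelia, did not pass the filter, and was at or under 0.2 TPM in all but Ecad female 3 (5.04 TPM) and ΔEcad female 8 (3.85 TPM). Of 5 salivary and mucosal gland genes tested, edgeR called 3 lower in ΔEcad females, where 0.0452% of all genes were. They were Slpi (-4.81, SE 1.10), the salivary protein gene Bpifa2 (-12.13, SE 2.865) and the amylase gene Amy1 (-7.54, SE 1.92). The highest sum of this list, 20340 TPM, was in Ecad female 3. Each of these 3 calls was lost without any 1 of Ecad females 1, 2, 3, 4, 6, 7 or 8 or of ΔEcad females 1, 2 or 7. All 3 were lost with limma voom, with the covariates and with the groups compared alone, and DESeq2 called only Slpi of them. That of Amy1 was lost without some other tumours as well, in 20 of the 32 fits that left out a tumour. Between Ecad females and males DESeq2 called the gland genes Amy1, Lpo and Slpi (5.77% of all genes), 1 higher and 2 lower in females. With edgeR 0 of them were called there and all were higher in females (7.05, 3.52 and 4.50), so directions differed between the tools. For the difference between the sexes DESeq2 called the same genes, 2 higher and 1 lower, where edgeR had -5.44, -0.94 and -5.29.

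The other lists gave no call with edgeR or limma voom in the 5 comparisons. Many of their counts at an unadjusted p under 0.05 were near or below the shares over all genes given above. In the order above, genes at such a p numbered 1, 0, 2, 0 and 1 of 5 for germinal centre and class switch, and 1, 1, 1, 0 and 1 of 8 for B cell help and survival. They numbered 0, 0, 2, 0 and 0 of 9 for T cells and 0, 0, 2, 0 and 0 of 4 for lymph node stroma and vessels. Of the B cell precursor list 1 gene was tested and had such a p between the male genotypes, and of 2 lactating mammary gland genes 1 did so in that comparison. Of 7 melanocytic genes there were 1, 0, 1, 0 and 1, and of 7 keratinocyte genes 6, 0, 6, 0 and 7. DESeq2 called Cxcl12, which draws plasma cells to their niche, higher in ΔEcad than in Ecad females, and Gcsam, a germinal centre gene, lower in Ecad females than in Ecad males. It called Cxcl13, which draws B cells into follicles, for the difference between the sexes.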

How the data were processed

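RNA from 32 tumours was sequenced by the authors from poly(A)-selected, stranded libraries (TruSeq Stranded mRNA, paired reads, NovaSeq). The authors aligned the reads to GRCm38 with STAR and GENCODE M13 gene models, and deposited raw counts per gene and a TPM table of the same tumours. FastQC 0.11.5 stands in the submitters' processing notes. Whether counting used strand is not given in the sources used here. The study's methods name a batch correction "when applicable" without saying for which data, and the deposited counts are whole numbers.

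Groups came from the labels, 8 tumours each. GENCODE M21 gave symbols and biotypes to 50376 of 50600 gene IDs, and 224 stayed unnamed. The members and the gene lists were chosen with earlier results of these data known. CPM was computed over the total deposited count, so the immunoglobulin genes are part of their own denominator. Class and V shares used the deposited TPM, with a minimum of 500 constant-gene or V counts (200 for 1 chain). Libraries held 24036333 to 63923086 counts, so 3 counts, the limit that a count of 0 allows, stand for 0.0469 to 0.125 CPM.

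Genes were tested with edgeR 4.0.16 (R 4.3.3; filterByExpr, TMM, robust quasi-likelihood test, 1 coefficient per group, all 32 tumours, 17717 genes, common dispersion 0.624). A call was a Benjamini-Hochberg adjusted p under 0.05 with a log2 fold change beyond 1. In simulated counts for the female genotypes over 17717 genes, 36% of the 100 genes given a log2 change of 2 were recovered, and 100% of the 100 given one of 4. The tested immunoglobulin genes had a median SE of 1.86 in that comparison, against 0.431 over all genes. Such recovery was not shown for them, since Ighg2c at -7.96 (SE 2.15) was not called by edgeR. Tried in its place were limma voom with quality weights (3.58.1), DESeq2 (1.42.0), RLE factors, factors without the immunoglobulin genes, no low-count filter, non-robust estimation, no fold threshold, a replicate block, covariates, the groups compared alone, each tumour left out, other minimums and units, and exact permutation tests of log2(CPM + 1) (scipy 1.17.1). Python 3.11.15, numpy 2.4.6, pandas 2.3.3 and matplotlib 3.10.9 were used. Named were the constant genes, the leading V segments of tumours past the minimum, the 10 V segments with the largest sums, called members (5 with the smallest p in each direction), Cdh1, the listed genes, and the 10 other genes most like the total. Ighg3, Ighd and the single V segments with uneven shares fall under these, while Igkv12-46 was named after its values were seen.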

Additional observations from a re-analysis of the deposited data

Results flagged for a closer look

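Tumours standing apart from the rest of their group, over all 8 or those past the count minimum, were looked for in 72 sets of values, and 13 stood apart beyond the 95% limit of Dixon's test, where chance gives about 1 in 20, or 3.6. ΔEcad female 2 stood apart in Igha, with 8.82 in log2(CPM + 1) against 3.24 in the nearest tumour, and in Iglc1, with 3.69 against 1.29. ΔEcad male 7, the tumour with the lowest sum of melanocytic markers, stood apart in Iglc2 (4.94 against 0.73), Iglc3 (5.34 against 0.81), Ighg3 (5.30 against 2.07) and Ighe (0.038 against 0). Ecad female 7 was apart in Iglc2, with 6.22 against 2.91, and Ecad female 2 in Ighd, with 4.74 against 2.17. Ecad male 4 was apart in Ighg3 at 1.19 against 0.56, and ΔEcad female 7 in Ighe at 0.18 against 0.059. Both Ighe values, and those of Ighg3 in Ecad male 4, are low levels.

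Among the shares, Ecad male 3 had 80.5% of its heavy constant TPM in IgG, where the nearest Ecad male had 35.7%, and 86.9% kappa light chain, where the nearest had 96.8%. ΔEcad male 1 had 70.4% kappa, where the nearest ΔEcad male had 91.0%.

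Outside the genes described, 155 V pseudogenes held 746 counts in all, of which 439 were in ΔEcad male 7, and 9 tumours had over 3. The 14 J segments held 727 counts, of which 306 were in Ecad female 7, and 11 tumours had over 3. No control tissue without B cells was among the samples, and 3 counts served as the limit.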

How the results depend on the processing

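Between the female genotypes edgeR called 213 genes and 1 immunoglobulin gene. The numbers were 322 and 3 with RLE factors, 555 and 45 without a low-count filter, 6 and 0 with covariates, 1 and 0 with the groups compared alone, 1 and 0 with limma voom and 1281 and 13 with DESeq2. DESeq2 called 21 genes between the male genotypes, where edgeR called 0. For Ecad sex, edgeR called 9 genes and 0 immunoglobulin genes, against 322 and 1 with the groups compared alone, 1023 and 12 with DESeq2, and 115 genes with voom. For ΔEcad sex, 7 genes became 0 with the groups compared alone and 24 with DESeq2. For the difference between the sexes, 0 genes became 201 with RLE factors, 284 (21 immunoglobulin) without a filter, 1 with covariates and 1225 (6 immunoglobulin) with DESeq2. Leaving out 1 tumour gave 1 to 659 genes and 0 to 6 immunoglobulin genes between the female genotypes, 0 to 0 and 0 to 0 between the male genotypes, 8 to 21 and 0 to 1 for Ecad sex, 7 to 8 and 0 to 0 for ΔEcad sex, and 0 to 838 and 0 to 6 for the difference. The cause was not tested.

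Directions turned as follows. Between the female genotypes, Ighm was at 0.22 with voom and 0.043 in the permutation test, Ighg1 at 0.21 and Iglc3 at 0.40 with voom, and Igha at -5.29 to 2.07 without 1 tumour (2.07 without Ecad female 7). For Ecad sex, voom gave Igkc -0.19, Ighg2b -0.83, Ighm -0.61, Ighg2c -0.91, Ighg1 -0.10, Igha -2.23, Iglc2 -0.52 and Jchain -0.10. Igha was also at -0.63 with DESeq2, -0.37 in the permutation test and at -0.48 to 3.00 without 1 tumour (-0.48 without Ecad female 7). With a minimum of 100 counts the median of Ecad females was 40.6% for IgM with IgD and 24.2% for IgG, and the median share of the leading V segment in Ecad males was 10.5% from raw counts.

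Tumours of different groups share replicate numbers in the labels. Over 48 pairs of tumours with the same number, 18 correlated above 0.1 in their deviations from the group means (-0.546 to 0.424). The number was therefore not taken to pair the tumours in the fits above. Whether it marks a batch or a litter was not tested. With the number as a replicate block, 1 gene and 0 immunoglobulin genes were called between the female genotypes (Igkv10-94 at -7.17, edgeR adjusted p 0.256), and Igha turned to -0.87 for Ecad sex, where the median of the 39 immunoglobulin genes tested was 2.45 with 3 at an unadjusted p under 0.05. The share of all genes at such a p under the block is not given here. Fcamr, Slpi, Bpifa2 and Amy1 also lost their calls under the block.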
